A study of Mus musculus with 2 samples.

Results

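The non-cycling Myog-high cells of injured mouse muscle numbered 80 among the 1468 cells kept from the library of activated satellite cells (ASCs), or 5.45% (95% interval 4.34 to 6.74%), and among 1984 kept cells of the whole series. They were chosen by measured values. Kept cells had 500 genes or more and at most 10% of their UMIs (unique molecular identifiers, 1 per captured transcript) from mitochondrial genes. The Myog-high cells also had under 5% of UMIs from 10 genes of mature fibres, under 0.2% from 6 immune genes, under 0.1% from 12 cell cycle genes, and 0.05% or more from Myog. The levels of these 29 genes, Myog among them, are therefore part of the definition and not a result. In the library of quiescent satellite cells (QSCs) 1 of 516 kept cells met the same rule.

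Both libraries came from tibialis anterior (TA) muscle of Pax7 CreERT2/+ ;Rosa26 mTmG/+ mice aged 8 weeks, in which a Cre driven by the Pax7 locus switches on a fluorescent reporter in satellite cells and leaves it on in their progeny. QSCs were sorted from uninjured muscle and ASCs from muscle taken 1.5 days after cardiotoxin (CTX), which destroys fibres. Each library pooled cells of several mice, so mice could not be separated, and with 1 library per group no difference had a replicate check. Cells of 1 library are not replicates, and no test was run over them.

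Satellite cells that leave the stem cell state pass from Pax7 and Myf5 to Myod1 and then to Myog, a basic helix-loop-helix factor that binds E-boxes and turns on genes of muscle differentiation. Myog expression normally goes along with lasting exit from the cell cycle, in which CDK inhibitors such as p57, the product of Cdkn1c, take part. The committed cells then make the fusion proteins myomaker (Mymk) and myomixer (Mymx) and the first sarcomere proteins, among them the cardiac-type actin Actc1 that embryonic and regenerating muscle uses. The study's own labels differ: it marked ASCs by Myod and Myog, and myocytes by Myf6 and Myh4, both among the fibre genes limited here.

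The sequences before the RefSeq start sites are shown for Myog, the gene that defined the cells, and Actc1, by which they are ordered further on. Myog is a classical target of muscle transcription factors and Actc1 of serum response factor. Each line gives 250 bases of GRCm38.p6 in the direction of transcription. Capitals mark E-boxes (CANNTG) in Myog, at chr1:134289754-134290003 on the plus strand, and the CArG box in Actc1, at chr2:114052876-114053125 on the minus strand.
Myog: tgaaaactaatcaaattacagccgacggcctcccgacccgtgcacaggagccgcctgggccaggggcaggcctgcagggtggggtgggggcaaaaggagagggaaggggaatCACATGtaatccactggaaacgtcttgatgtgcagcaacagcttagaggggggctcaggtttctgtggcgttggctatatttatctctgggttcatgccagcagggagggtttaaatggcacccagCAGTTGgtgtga
Actc1: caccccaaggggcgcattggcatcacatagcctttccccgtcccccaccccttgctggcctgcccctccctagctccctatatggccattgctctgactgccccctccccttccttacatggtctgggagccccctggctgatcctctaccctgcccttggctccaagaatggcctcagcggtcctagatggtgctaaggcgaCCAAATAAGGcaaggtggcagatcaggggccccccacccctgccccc
The Myog E-boxes begin 138 and 12 bases before the start site, and the Actc1 CArG box 47 bases before it. Over the table's windows of 250 bases before to 50 after a start site, 72.3% of 32851 held CANNTG and 1.63% a CArG box. Both motifs read the same on both strands, and a match is a description and not a binding site. Cdkn1c, Mymk and Mymx are given here by name and position only. In the GENCODE M21 annotation of GRCm38, Myog lies on chromosome 1 (134289989 to 134292548), Cdkn1c on chromosome 7 (143458339 to 143461050), Mymk and Actc1 on chromosome 2 (27061636 to 27072179 and 114047282 to 114053548), and Mymx on chromosome 17 (45600971 to 45602102). These gene starts differ from the RefSeq start sites used above. The Actc1 stretch shown lies wholly inside the GENCODE gene, and the Myog stretch ends inside it.

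The Myog-high cells were compared with cells of the same library only. Myog-low cells, 206 in number, passed the same limits with Myog under 0.05%. Cycling cells, 137 in number, had 0.1% or more of UMIs from the cycle genes. The 935 fibre barcodes had 5% or more from fibre genes, the 106 immune barcodes 0.2% or more from immune genes, and 4 barcodes passed both of the latter limits. Of the 286 non-cycling cells outside the fibre and immune barcodes, 28.0% (22.8 to 33.6%) were Myog-high.

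Depth differed between these groups. The Myog-high cells held 922323 UMIs with a median of 10998.5 per cell (1127 to 30727), against medians of 5093 in Myog-low cells, 23156 in cycling cells, 2672 in fibre barcodes and 5449 in immune barcodes. Their median mitochondrial share was 2.59% (0 to 6.22%), and 7 of the 80 lay under 1%, the limit named in the study's methods. Levels are UMIs pooled over the cells of a group and expressed as CPM, the usual scaling by total counts. Brackets after a CPM hold an exact Poisson 95% interval, those after a log2 ratio an exact conditional binomial one and those after a share of cells an exact Clopper-Pearson one, and all cover counting error only. Libraries shared 4 cell barcodes, none of them from a Myog-high cell.

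The identity of committed muscle cells and its markers Cdkn1c, Actc1 and Mymk were chosen with earlier results of these data known. Their levels are therefore no independent check of it. Most of the cells held a marker besides Myog. Myog itself, which chose them, ranged from 5.21 to 116 per 10000 UMIs with a median of 51, and its pooled level was 4835 CPM (4694 to 4979) against 55.5 CPM in Myog-low cells and 157 CPM in cycling cells. Cells just inside the Myog limit had 0.0521, 0.0559 and 0.0585% of UMIs from it, and cells just outside had 0.0499, 0.0492 and 0.0432%. A single Myog UMI placed 1 cell in the group, and 65 of 80 cells held 10 or more. Cells just under the fibre limit had 4.85, 4.65 and 4.01% of UMIs from fibre genes and the nearest above it 5.07, 5.18 and 5.49%, and 90 of the fibre barcodes reached the Myog limit with cycle genes under theirs.

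Cdkn1c ranged from 0 to 295 per 10000 UMIs in the Myog-high cells, with a median of 23.7, and at least 1 UMI was present in 62 of 80. In Myog-low cells the median was 0 and the highest cell reached 22.1. The ranges of the groups thus overlapped from 0 to 22.1, and 18 Myog-high cells had no UMI. Pooled levels were 5997 CPM (5839.8 to 6157), 77.7 CPM in Myog-low cells, 106 CPM in cycling cells and 33.1 CPM in immune barcodes, and the log2 ratio over Myog-low cells was 6.27 (5.99 to 6.56). Of the Cdkn1c UMIs of the cycling cells, 68.0% came from 2 cells.

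Actc1 had a median of 1.33 and a highest value of 60.8 per 10000 UMIs in the Myog-high cells and was found in 45 of 80, with 35 cells at 0. Its pooled level was 1192 CPM (1122 to 1264) against 44.4 CPM in Myog-low cells and 26.6 CPM in cycling cells, a log2 ratio over Myog-low cells of 4.75 (4.37 to 5.15). Mymk, the fusion protein of the myoblast membrane, was found in 55 of 80 cells at up to 22.9 per 10000 UMIs, and in 3 of 206 Myog-low cells. Its levels were 549.7 CPM (503 to 599.7) and 2.22 CPM, a log2 ratio of 7.95 (6.40 to 10.23) that rests on 3 UMIs in Myog-low cells. Of the 3 markers that the rule did not use, 39 cells held all, 16 held 2, 13 held 1 and 12 held none. The 12 cells with none were shallower, with a median of 5431.5 UMIs against 11986 in the cells with all 3, so absence of a UMI says less in them. Because of these 12 cells the group is called Myog-high and not committed.

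**Figure D1:**
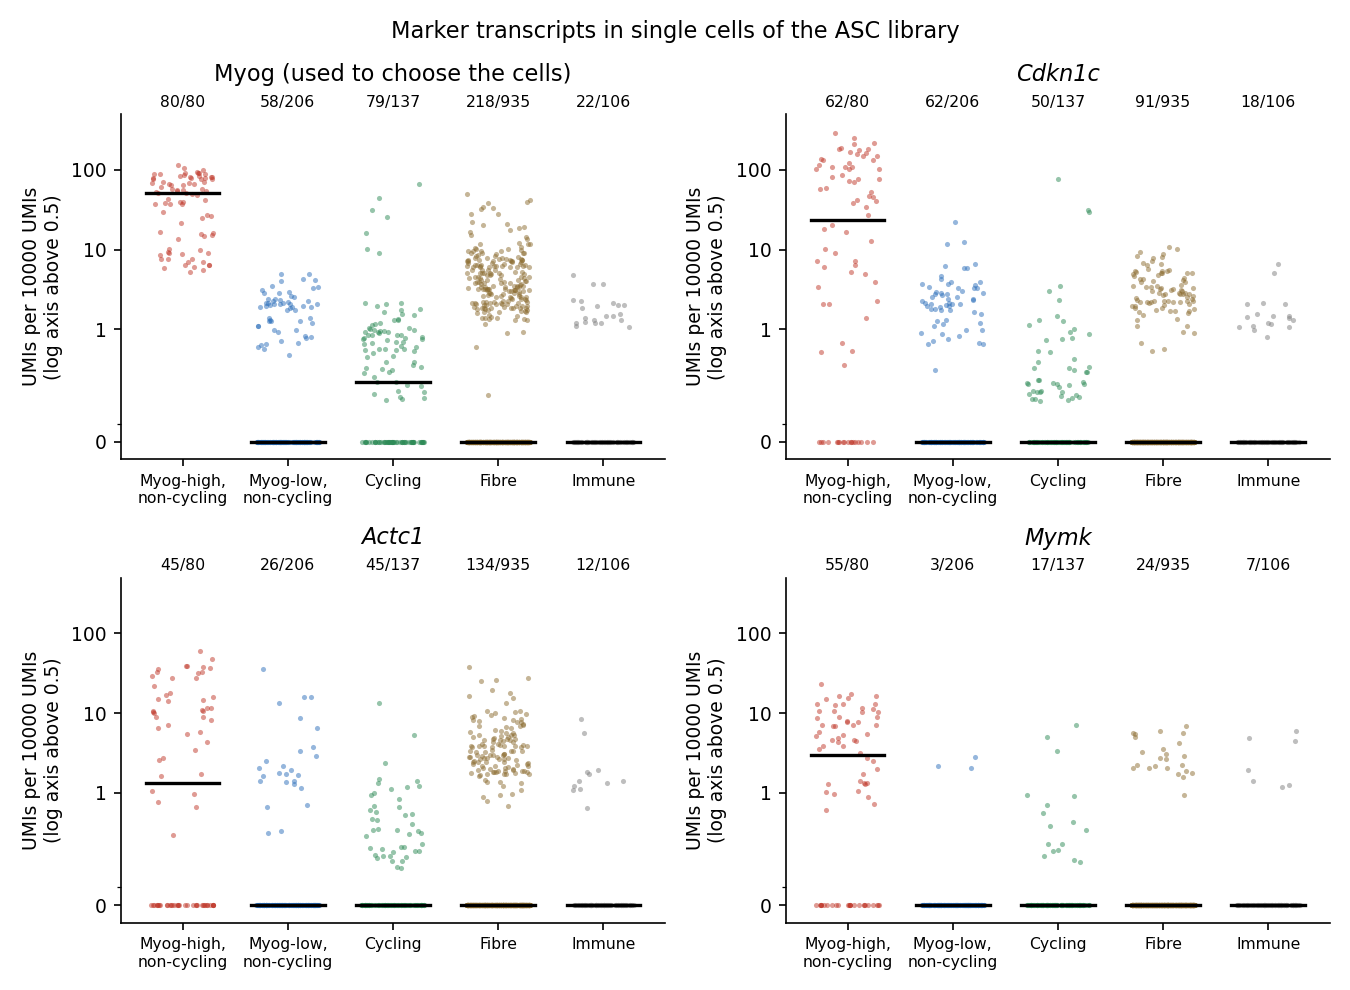
UMIs of Myog, Cdkn1c, Actc1 and Mymk per 10000 UMIs in each cell (points; y axis logarithmic above 0.5) for 5 groups of barcodes of the ASC library, with medians as black bars and the number of barcodes with a UMI above each group. Cdkn1c was present in 62, Actc1 in 45 and Mymk in 55 of the 80 Myog-high cells, and all 3 medians were 0 in each other group.

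Thinning every cell to 1200 UMIs, which left out 1 Myog-high cell, kept the difference in shares. Cdkn1c was then found in 65.8% (54.3 to 76.1%) of 79 Myog-high cells, 7.32% of 205 Myog-low cells, 2.99% of 134 cycling cells and 3.0% of 100 immune barcodes. For Actc1 the shares were 44.3% (33.1 to 55.9%), 3.90%, 4.48% and 3.0%, and for Mymk 41.8% (30.8 to 53.4%), 0.488%, 2.24% and 2.00%. The immune barcodes, which should lack all 3 transcripts, give the level of free RNA in the droplets, and the Myog-high shares were above it. Before thinning the Myog-high shares were 77.5, 56.25 and 68.75%.

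Markers of other cell types were low. All 4 T and NK cell markers (Cd3e, Cd3g, Trac, Nkg7) were at 0 in the Myog-high cells, which allows up to 3 of 922323 UMIs for each, as were 4 of 6 endothelial markers (4 UMIs in all), 3 of 6 fibroblast markers (5 UMIs in all) and the neutrophil markers Csf3r and Retnlg (12 UMIs for the 4 neutrophil genes). The 9 macrophage markers summed to between 0 and 0.0711% of UMIs per cell, against a median of 1.36% in immune barcodes, and haemoglobin to at most 0.0948%. The mural cell list was the exception, with a median of 0.295% against 0.0386% in Myog-low cells. Nearly all of it was Acta2, smooth muscle actin, found in 78 of 80 cells at 3441 CPM (3323 to 3563) against 1171 CPM in Myog-low, 547 CPM in cycling and 85.4 CPM in immune barcodes (log2 ratio over Myog-low cells 1.56 [1.47 to 1.64]). The mural markers Rgs5 and Myh11 were at 0. Schwann cell markers had 1 UMI in all, and tenocyte markers 60, all from Scx, with Tnmd and Fmod at 0. Satellite cell markers (Pax7, Myf5, Calcr, Chodl, Vcam1 and Sdc4) summed to a median of 0.0299% of UMIs, against 0.172% in Myog-low cells.

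Over all genes the Myog-high cells were close to the Myog-low cells. Of 7179 genes with 20 or more UMIs in both groups together, called measured genes below, 520 (7.24%) were higher by 2-fold or more and 698 (9.72%) lower, and the median log2 ratio was 0.05. Over cycling cells 991 of 8499 genes (11.7%) were higher and 1307 (15.4%) lower, with a median of -0.08. Over fibre barcodes 2599 of 7624 (34.1%) were higher and 1514 (19.9%) lower, with a median of 0.28, so ratios over fibre barcodes are given below relative to that median. These shares are the background for the counts within gene lists.

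Among genes outside the rule with 100 CPM or more where they were higher, the highest ratios over Myog-low cells were those of Mymk and Cdkn1c, then Fndc5 (173 against 5.92 CPM, log2 ratio 4.87 [3.86 to 6.11]), which encodes the precursor of irisin, and then Actc1. At a mitochondrial limit of 1%, which leaves 7 Myog-high cells, the ratio of Fndc5 was 0.59, on very few UMIs. Cells with 1% or more held 159 of its 160 UMIs in Myog-high cells and 3 of its 8 in Myog-low cells. Among those cells its ratio was 6.16 (4.59 to 8.45). Dbn1, which encodes the actin-binding drebrin, followed at 383 against 15.5 CPM, with a ratio of 4.62 (3.99 to 5.33). Lmnb2, a B-type lamin of the nuclear envelope, stood at 371 against 29.6 CPM (3.65) and was found in 61 of 80 cells. The rest of the 10 were the inositol phosphatase gene Inppl1 (3.54), Spg21 (3.29), the RNA-binding splicing factor Rbm24 (3.26) and the adhesion molecule Jam3 (3.11). Each of these 10 was found in 43 or more of the 80 cells, and no single cell held more than 11.8% of a gene's UMIs in the group. Cdkn1c, Inppl1, Spg21, Jam3 and, below, Igfbp7, Ccna2 and Ube2c overlap an annotated gene on the opposite strand, and the handling of strand in counting is not given in the sources used here.

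The lowest ratios over Myog-low cells were those of 4 haemoglobin genes (Hba-a2, Hba-a1, Hbb-bs and Hbb-bt, log2 ratios from -7.16 to -5.60), and 2 Myog-low barcodes with 81.3% and 52.6% of their UMIs from haemoglobin held 98.2 to 99.6% of these UMIs. Without those barcodes the ratios of the 4 genes were -0.73, 1.17, -0.03 and 0.21. The haemoglobin genes are near-identical copies, so their separate counts are uncertain. The others were the collagen gene Col1a1 (2 UMIs, log2 ratio -5.73 [-8.78 to -3.85]), the secreted Igfbp7 (33.6 against 434 CPM, -3.69), the chemokine Ccl7 (-3.30), the secreted glutathione peroxidase Gpx3 (267 against 2525 CPM, -3.24), the lipid carrier Apoe (127 against 1167 CPM, -3.20) and Slc43a3 (-3.16). Gpx3 and Apoe had UMIs in 178 and 165 of the 206 Myog-low cells, whereas 39.4% of the Ccl7 UMIs there came from 2 cells. At the 1% mitochondrial limit Apoe turned to 0.33 and Ccl7 to 1.91, and Gpx3 stood at -1.17.

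Over cycling cells the 5 highest ratios under the same rule were those of Cdkn1c (5.82), Actc1 (5.48), Mymk (5.22), Fndc5 (5.04) and Clip3 (144 against 7.23 CPM, 4.32 [3.66 to 5.04]), which encodes a protein that binds microtubules. The 4 that head both comparisons were thus higher than in either neighbouring group. The 5 lowest were genes of dividing cells, namely the histone gene Hist1h2ap (-5.06), the mitotic kinase gene Pbk (-5.01 [-7.30 to -3.45], 3 UMIs in Myog-high cells), the chromatin helicase gene Hells (-4.47), cyclin A2, Ccna2 (-4.16), and the ubiquitin-conjugating enzyme gene Ube2c (-4.06). Hist1h2ap belongs to a family of near-identical histone genes, so its own count is uncertain.

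**Figure D2:**
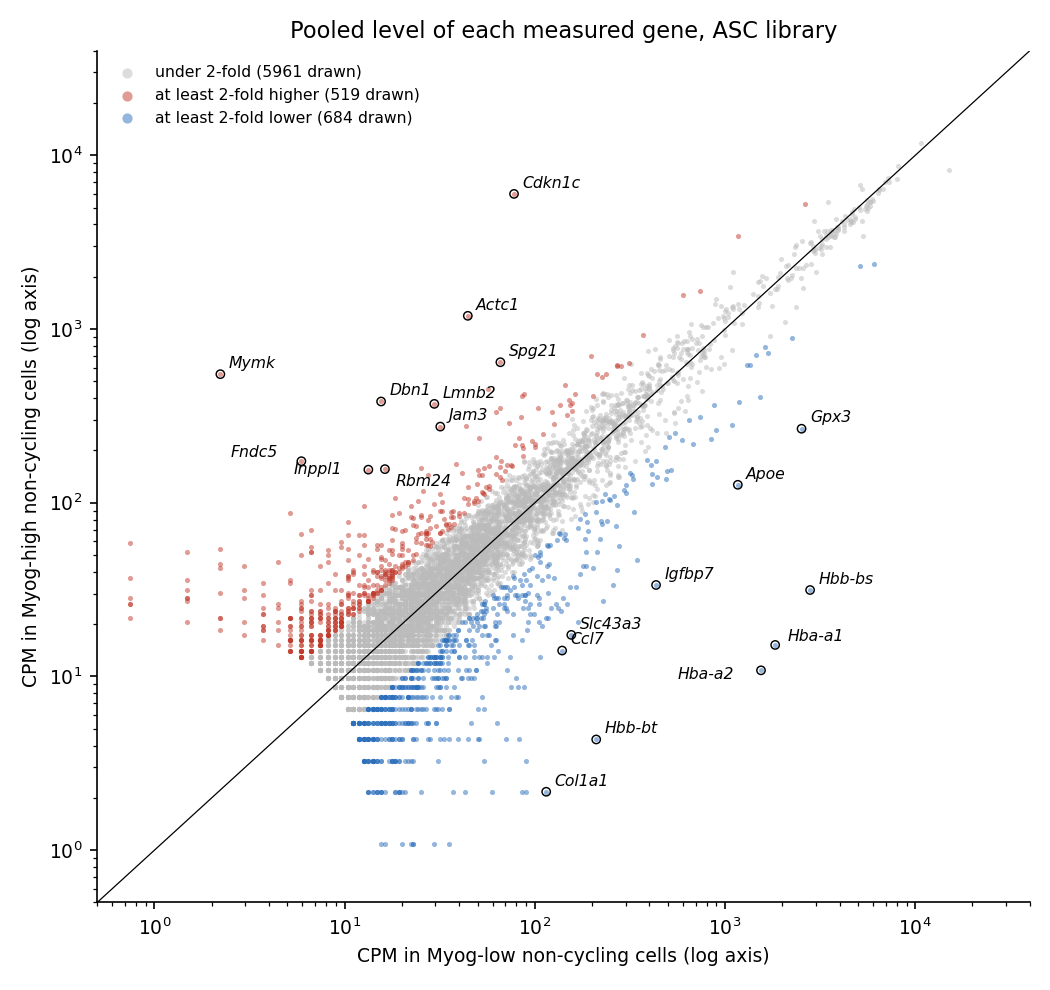
Pooled CPM of each measured gene in Myog-high (y axis) against Myog-low non-cycling cells (x axis), both logarithmic, with the 10 highest and 10 lowest ratios circled and named; genes without a UMI in a group are not drawn. Most genes lie near the diagonal, and Mymk, Cdkn1c and Actc1 lie far above it.

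The myogenic factors differed by stage. Of 10 measured genes outside the rule 2 were higher and 3 lower by 2-fold or more than in Myog-low cells (median log2 ratio 0.43). Pax7, which marks satellite cells, stood at 10.8 CPM (5.2 to 19.9) with UMIs in 7 of 80 cells, against 71.8 CPM in Myog-low cells (log2 ratio -2.73 [-3.83 to -1.79]). Myf5, the early determination factor, was likewise lower at 28.2 against 141 CPM (-2.33), as was its relative Msc, a repressor of muscle genes (-1.88). Myod1 differed less between groups, at 486 CPM in Myog-high, 363 in Myog-low and 416 in cycling cells. Mef2a (1.14) and Six4 (1.05 [-0.10 to 2.25]) were the higher ones, and the interval of Six4 included 0.

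Id proteins bind E proteins and keep them from pairing with myogenic factors. Id3 was lower than in Myog-low cells, at 279 against 1089 CPM (log2 ratio -1.97 [-2.16 to -1.77]), and so was Id2 (-1.09), whereas the E protein gene Tcf12 was higher (1.47). The 3 other genes of this list lay lower by less than 2-fold, namely Id1 (-0.48 [-0.83 to -0.14]) and the E protein genes Tcf4 (-0.42 [-0.76 to -0.08]) and Tcf3 (-0.42 [-1.12 to 0.25], an interval that included 0), so the E proteins did not share a direction.

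Genes of the satellite cell surface were, as a list, lower than in Myog-low cells but not than in cycling cells. Against cycling cells 4 of 11 measured were higher by 2-fold or more and 2 lower, with a median log2 ratio of 0.12. Against Myog-low cells 6 of 12 measured were lower by 2-fold or more and none higher, with a median log2 ratio of -1.02. The lower ones included Cd34 (-3.54, 5 UMIs), Chodl (46.6 against 346 CPM), the heparan sulphate proteoglycan Sdc4 (263 against 901 CPM) and the adhesion molecule Vcam1 (-1.41). M-cadherin (Cdh15), found in 67 of 80 cells, had a ratio of 0.01 (-0.23 to 0.24).

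In the Notch pathway the ligand Dll1 and the target genes went different ways. Dll1, a ligand that a cell presents to its neighbours, was higher at 77 CPM (60.1 to 97.1) against 10.4 CPM in Myog-low and 15.5 CPM in cycling cells (log2 ratios 2.89 and 2.32). Hes6, which counteracts Hes1, was higher as well (237, 51.1 and 101 CPM). The Notch targets Hes1 (-2.33) and Heyl (-1.35) and the receptor Notch3 (2 UMIs, -4.31 [-7.39 to -2.39]) were lower than in Myog-low cells. Those were all the genes past 2-fold among the 9 measured (2 higher and 3 lower, median -0.55). Without the 11 Myog-low cells with 0.2% or more of UMIs from endothelial, fibroblast and mural markers other than Acta2, Notch3 had a ratio of -4.23, Heyl of -1.33 and Hes1 of -2.27. After thinning, Dll1 was found in 8.86% of Myog-high and 2.44% of Myog-low cells, and Hes6 in 22.8% and 4.88%.

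Cell cycle genes outside the rule were compared next. Over Myog-low cells, 0 of 6 measured G2 and M phase genes and 5 of 15 measured S phase genes lay 2-fold or more away (1 higher, Ccne1, and 4 lower). Over cycling cells all 19 G2 and M genes and all 17 S phase genes were lower by 2-fold or more, with median log2 ratios of -3.26 and -2.69. The absence of 12 related genes chose the cells, so this difference follows the definition. With the 3 genes at 0 set to a floor of 3 UMIs over the group, the first median was -3.06.

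Among cyclins and CDK inhibitors, Cdkn1c, Ccnd3 and Rb1 were the 3 of 14 measured genes higher by 2-fold or more than in Myog-low cells, and Cdkn2d the 1 that was lower. Ccnd3, the D-type cyclin retained in differentiated muscle, stood at 423 CPM (382 to 467) against 162 CPM and 147 CPM in cycling cells. Rb1, the retinoblastoma protein, stood at 55.3 CPM (41.2 to 72.7) against 9.62 and 10.2 CPM. Ccnd1, the D-type cyclin of proliferating cells, was level with Myog-low cells (139.9 and 138 CPM, log2 ratio 0.02 [-0.31 to 0.35]) and was lower than in cycling cells (361 CPM, -1.37). Cdk6, a kinase partner of D cyclins, had a ratio of -3.56 over cycling cells. The CDK inhibitor p21 gene Cdkn1a was higher by less, at 430.4 against 315 CPM (0.45).

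Of the fusion and adhesion genes 5 of 12 measured were higher by 2-fold or more over Myog-low cells, and 7 of 13 over cycling cells. Mymx, the second muscle-specific fusogen, was seen in 15 of 80 cells at 58.5 CPM (44 to 76.4), and in 1 of 206 Myog-low cells (log2 ratio 6.31 [3.77 to 11.64]). All 15 cells with a Mymx UMI also held Mymk, and 40 cells held Mymk alone. Jam3 (274 against 31.8 CPM), the Rac activator subunit Elmo1 (3.29 [1.53 to 5.68]) and the membrane-curving Bin1 (611 against 270.2 CPM, 1.18) were also higher. Dock1, the partner of Elmo1, was the lower one (-1.70 [-3.71 to -0.11]). Over fibre barcodes Mymk was higher by 5.82 and Jam3 by 6.08 on the log2 scale, relative to the median gene, and Bin1 was lower (-1.47).

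Sarcomere genes separated by isoform. Over cycling cells all 9 measured developmental, slow and cardiac isoforms were higher by 2-fold or more (median log2 ratio 3.46), for instance the cardiac troponin T gene Tnnt2 (209 against 19.1 CPM) and the slow troponin I gene Tnni1 (127 against 6.9 CPM). Over Myog-low cells 4 of 10 were higher and 2 lower, with a median of -0.18. Tnnt2 was higher (1.06 [0.73 to 1.38]), whereas the embryonic light chain gene Myl4 was level (-0.10 [-0.49 to 0.28]) and the slow troponin genes Tnnt1 (-1.69) and Tnnc1 (-1.47) were lower.

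Cells with low mitochondrial shares carried part of that signal in both groups. Under 1% mitochondrial UMIs lay 7 Myog-high and 18 Myog-low cells. Of 94 Myl4 UMIs in Myog-high cells, 45 came from 3 of the 7, which also held 30 of 193 Tnnt2 UMIs, no Cdkn1c UMI and 3.68 to 4.85% of UMIs from fibre genes. The 18 Myog-low cells held all but 20 of the 148 Myl4 UMIs of their group. With cells under 1% left out of both groups, 7 of 9 measured isoforms were higher by 2-fold or more than in Myog-low cells and none lower (median 1.73). There Actc1 had a ratio of 6.04 (5.43 to 6.72), Tnnt2 of 3.02 (2.42 to 3.66), Tnni1 of 2.75 (1.64 to 4.06), Myl4 of 1.73 (0.95 to 2.55) and Tnnt1 of 0.27 (-0.23 to 0.77). This comparison was chosen after the values had been seen. Cdkn1c barely moved, at 6.31 (6.01 to 6.62).

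Adult fast fibre genes outside the rule were not higher in the Myog-high cells. Over Myog-low cells 0 of 16 were higher and 2 lower (Sln, an inhibitor of the calcium pump, and Ampd1), and over fibre barcodes all 18 were lower, with a median of -3.46 relative to the median gene. The limit on 10 related fibre genes separated those 2 groups, so the difference over fibre barcodes follows the definition. The fast troponin I gene Tnni2 stood at 1707 CPM in Myog-high cells and 1828, 1846 and 2469 CPM in Myog-low, cycling and immune barcodes, and after thinning it was found in 88.6% of Myog-high cells and 93.0% of immune barcodes. The Myog-high share was thus not above that of immune barcodes, so it does not show that these cells make Tnni2. The source of these UMIs was not tested. Scaffold genes of the sarcomere were mostly level with Myog-low cells (3 of 12 higher, 1 lower, median 0.09). The 3 were the giant spring protein titin, Ttn (54.2 against 10.4 CPM, 2.39 [1.51 to 3.36]), nebulin, Neb (1.10 [0.30 to 1.91]), and Klhl41, which steadies nebulin (1.28 [0.76 to 1.82]).

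Genes of the neuromuscular junction and calcium release held a higher share of genes above Myog-low cells than any other list. Over Myog-low cells 8 of 14 measured were higher by 2-fold or more and none lower (median 1.10), and over cycling cells 6 of 15 and none. Subunits of the fetal acetylcholine receptor were among them, namely Chrna1 (374 against 158 CPM, 1.25), Chrnd (31.4 against 1.48 CPM, 4.41 [2.43 to 7.52]) and Chrng (3.80 [1.75 to 6.94]). The last 2 had 2 UMIs each in Myog-low cells. Dok7, the adaptor of the synaptic kinase MuSK, stood at 87.8 against 5.18 CPM (4.08 [2.97 to 5.44]), while Musk itself had 8 UMIs and a ratio of -0.15 (-1.63 to 1.23). Of the excitation-contraction genes, the calcium channel subunit Cacng1 (2.08), Stac3 (1.77), the calcium pump Atp2a2 (1.16) and the release channel Ryr1 (1.04 [-0.24 to 2.37]) were higher. The interval of Ryr1 included 0, and its level of 15.2 CPM was below the 22.7 CPM of immune barcodes. Its place among the 8 is therefore uncertain, and the source of its UMIs was not tested. Chrna1 and Dok7 were also higher than in fibre barcodes (4.60 and 1.85, relative to the median gene), where Cacng1 and Stac3 were lower (-0.95 and -1.36).

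**Figure D3:**
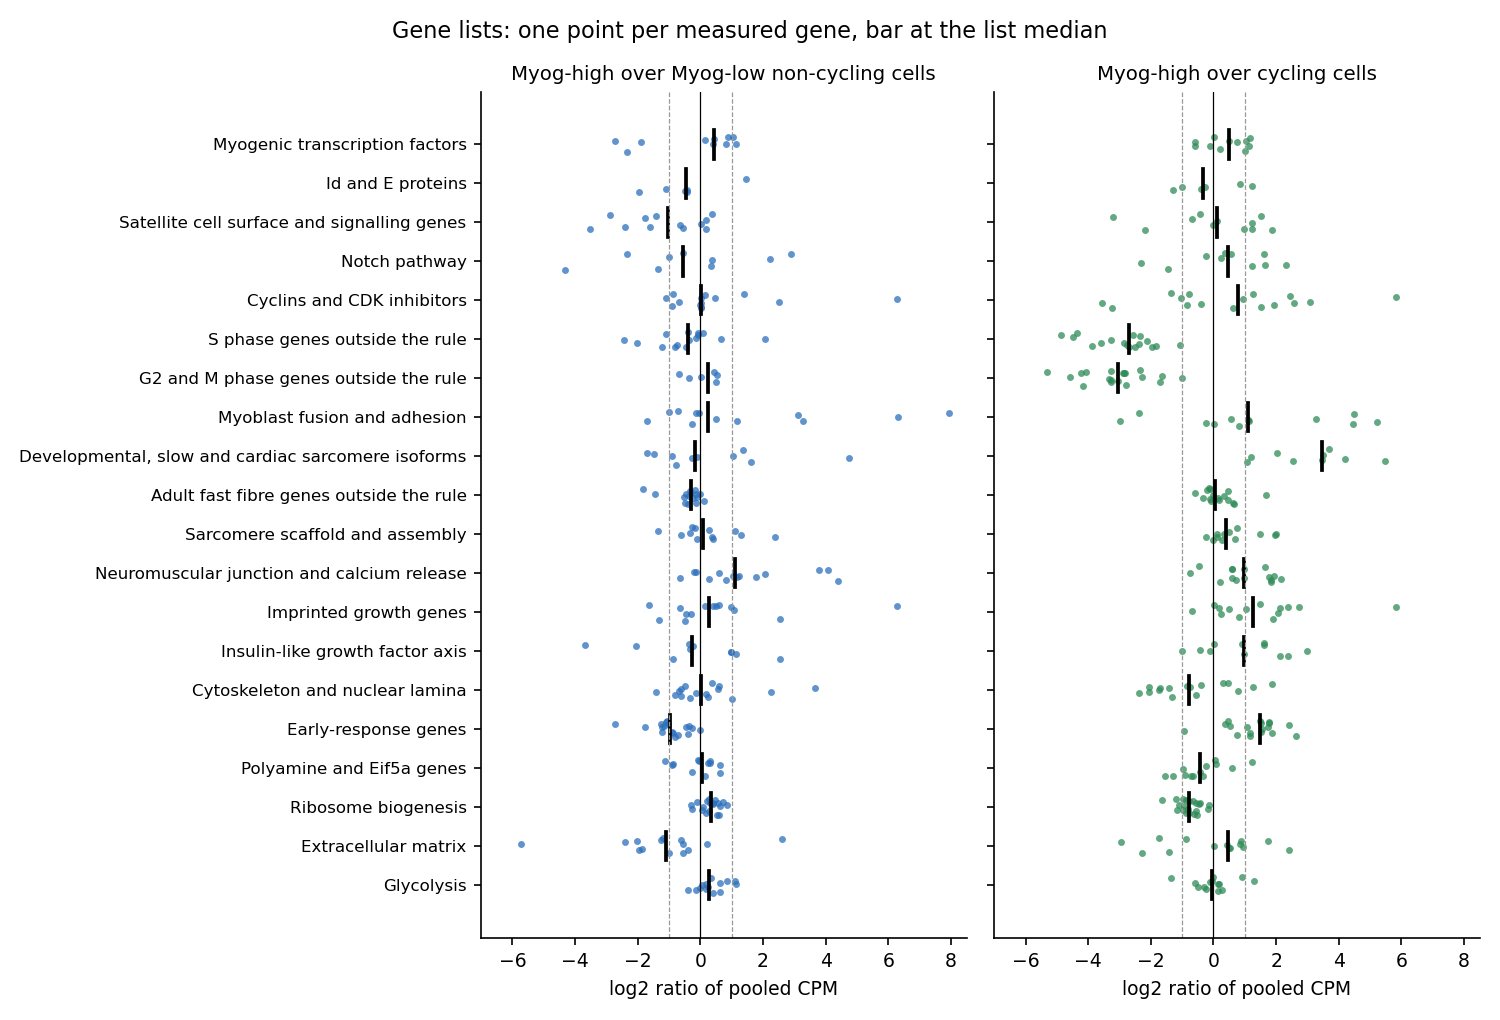
Log2 ratio of Myog-high cells over Myog-low cells (left) and over cycling cells (right) for each measured gene (points) of each gene list, with the median of each list as a black bar and dashed lines at 2-fold. The medians of junction genes and myogenic factors over Myog-low cells are 1.10 and 0.43, and those of satellite cell surface, early-response and matrix genes are -1.02, -0.97 and -1.09.

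Among imprinted growth genes, which include Cdkn1c, 3 of 14 were higher and 2 lower by 2-fold or more than in Myog-low cells. Besides Cdkn1c these were the growth factor Igf2 (26 against 4.44 CPM, 2.55 [1.22 to 4.13]) and the receptor adaptor Grb10 (1.06 [0.63 to 1.50]), with Ndn (-1.64 [-3.07 to -0.44]) and Sgce (-1.31 [-2.42 to -0.32]) lower. The maternally expressed neighbour of Igf2, H19, was close to level (0.39 [0.00 to 0.79]), so the list as a whole (median 0.27) did not share the size of the Cdkn1c difference. In the insulin-like growth factor axis, the binding protein Igfbp3 was higher (1.14 [0.38 to 1.91]) and Igfbp5 (43.4 against 178 CPM, -2.04) lower beside Igfbp7.

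The cytoskeleton list held the lamin change already named. Lmnb1 was higher than in Myog-low cells (84.6 against 17.8 CPM, 2.25 [1.58 to 2.98]) and, unlike Lmnb2, lower than in cycling cells (124 CPM, -0.56). The actin-sequestering Tmsb4x was higher (5279 against 2625 CPM, 1.01), and vimentin, Vim, an intermediate filament of immature cells, was lower than in Myog-low (-0.82) and cycling cells (-1.75). Among extracellular matrix genes 8 of 14 were lower than in Myog-low cells and the laminin gene Lama5 was higher (2.62 [1.17 to 4.38]). Against cycling cells 2 of 14 matrix genes were higher by 2-fold or more and 4 lower, with a median of 0.47. The Myog-low cells also held more UMIs of other cell types, with 359 from fibroblast markers and 80 from endothelial markers against 5 and 4 in Myog-high cells, and 5 cells above 0.2% for each. Without the 11 cells that were left out for Notch3, 7 of 14 matrix genes were lower, and the median went from -1.09 to -1.04. Of the 18 early-response genes 9 were lower than in Myog-low cells and none higher. Jun stood at 617 against 1305 CPM and Fosb at 155 against 523 CPM. Over cycling cells 13 of 18 were higher and none lower, with Fosb at 45.7 CPM there.

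The study followed polyamines and the translation factor eIF5A. In the Myog-high cells 0 of 12 measured genes of that list were higher and 1 lower by 2-fold or more than in Myog-low cells. The shares over all measured genes were 7.24% and 9.72%, and the median log2 ratio of the list was 0.06. Odc1, the rate-limiting ornithine decarboxylase, stood at 144 CPM (121 to 171), below the 272 CPM of Myog-low (-0.92 [-1.21 to -0.63]) and the 352 CPM of cycling cells (-1.29 [-1.56 to -1.03]). Srm, the spermidine synthase, was level with Myog-low cells (-0.03 [-0.38 to 0.31]) and lower than in cycling cells (129 against 379.7 CPM, -1.56 [-1.84 to -1.28]). Sat1, which acetylates spermidine and spermine, was the gene past 2-fold (66.1 against 144 CPM, -1.13 [-1.57 to -0.70]). Eif5a was found in all 80 cells at 1387 CPM (1312 to 1465), with a ratio of 0.24 (0.13 to 0.35) over Myog-low and -0.90 (-0.99 to -0.81) over cycling cells. Ribosome biogenesis genes showed the same order, with a median ratio of 0.33 over Myog-low cells (none of 20 past 2-fold) and -0.79 over cycling cells (4 of 21 lower). In glycolysis, Pgk1 (1.10) and Pfkl (1.14) were the 2 of 14 genes past 2-fold over Myog-low cells, against 7.24% of all measured genes, and the median was 0.29.

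The Myog-high cells differed widely among themselves. Divided by Myog, which chose them, into bands of 0.05 to 0.2% (25 cells), 0.2 to 0.6% (24 cells) and 0.6% or more (31 cells), Cdkn1c stood at 569 (484 to 666), 6033 (5753 to 6324) and 10143 (9816 to 10478) CPM and was found in 13, 19 and 30 cells. Actc1 stood at 79.8, 1232 and 2015 CPM and Mymk at 72.5, 624 and 857 CPM. Pooled levels of all 3 markers were thus far lower in the lowest band, beyond counting error, and the intervals leave out the spread between cells. Median depth was 8553, 10765.5 and 11791 UMIs. Pax7 had 10 UMIs in 7 cells of the lowest band and 0 in both other bands, where the intervals reach 12.8 and 10.3 CPM, while Myod1 stood at 559, 413 and 488 CPM. Ccnd1 was lower in each band than in the one before, at 258, 153 and 39.1 CPM.

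**Figure D4:**
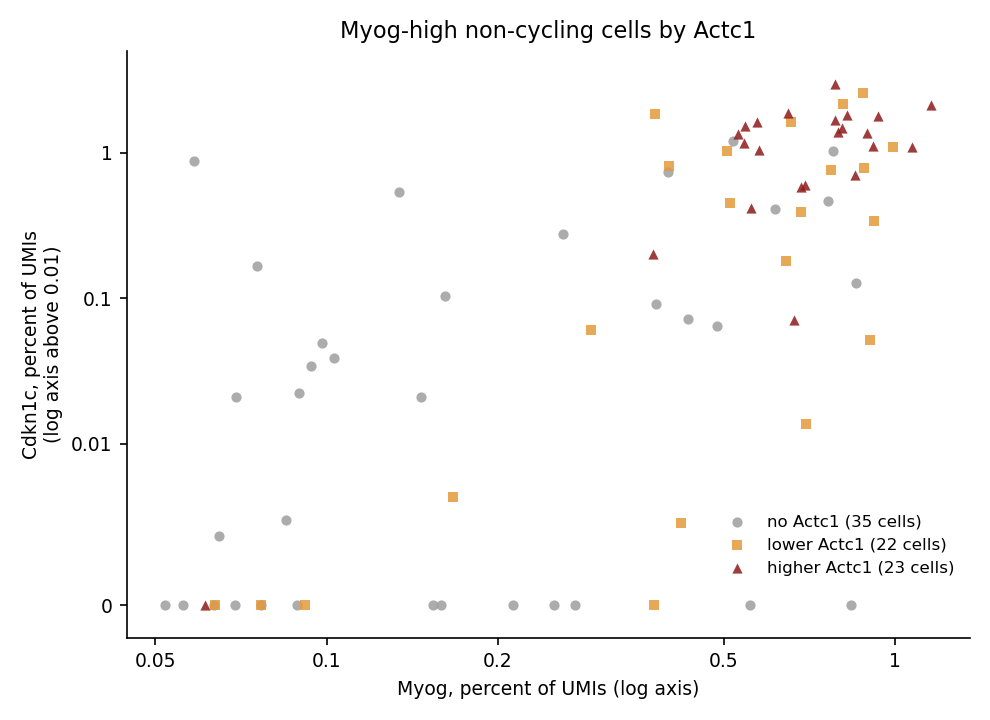
Percent of UMIs from Cdkn1c (y axis, logarithmic above 0.01%) against percent from Myog (x axis, logarithmic) in each of the 80 Myog-high cells, with colour and shape for cells with no (35), lower (22) and higher (23) Actc1. Most cells with higher Actc1 lie at the upper right, with Myog and Cdkn1c both high, and under 0.2% Myog 13 of 25 cells held Cdkn1c.

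Of the 137 cycling cells 7 (5.11%, 2.08 to 10.2%) reached the Myog limit, and they held Cdkn1c at 2918 (2577 to 3291) CPM in 4 cells, Actc1 at 396 CPM and Mymk at 308 CPM. Among them 2 cells held 219 of the 265 Cdkn1c UMIs, 32 of the 36 Actc1 UMIs and 21 of the 28 Mymk UMIs, and without those 2 the levels were 865, 75.2 and 132 CPM. In the other 130 cycling cells the levels were 19.3, 15.2 and 5.76 CPM. Cells just inside the cycle limit had 0.0887, 0.0819 and 0.0799% of UMIs from the 12 cycle genes and the nearest cells outside, with Myog at the limit, had 0.102, 0.178 and 0.193%. No UMI of those genes was found in 20 of the 80 Myog-high cells.

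Ordered by Actc1, which the rule did not use, the Myog-high cells fell into 35 cells without a UMI, 22 with lower and 23 with higher levels (0.397 to 10.8 and 11.1 to 60.8 per 10000 UMIs). Their median depths were 8553, 11614.5 and 13795 UMIs and their median Myog levels 0.154, 0.579 and 0.696%, so Actc1 followed Myog and, in part, depth. Cdkn1c stood at 1845, 5702 and 10721 CPM in these groups and was found in 22, 18 and 22 cells. The log2 ratio between the highest group and the cells without Actc1 was 2.54 (2.42 to 2.66). Mymk went the same way at 166, 465 and 1033 CPM (2.64 [2.23 to 3.07]).

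Some other late genes were higher with Actc1 too. The ratio was 2.51 (1.88 to 3.21) for Tnnt2, 2.43 (1.24 to 3.85) for Ttn, 2.41 (1.45 to 3.49) for Klhl41, 2.53 (0.72 to 4.95) for Igf2 and 2.28 (0.68 to 4.30) for Chrnd. Genes of the same lists that did not clearly rise included Tnnc1 (0.45 [-0.33 to 1.25]), Tpm1 (0.04 [-0.13 to 0.20]), Des (-0.26 [-0.45 to -0.08]) and Rapsn (-0.63 [-1.33 to 0.05]). Lower with Actc1 were the satellite cell genes Chodl (119, 3.84 and 3.14 CPM), Sdc4 (-2.42) and Vcam1 (-2.49), the inhibitors Id2 (-2.68) and Id3 (-1.80), Vim (-1.87), the growth factor Igf1 (-4.06 [-7.16 to -2.10]) and Igfbp5 (-4.93 [-10.28 to -2.36]). Pooled over lists, satellite cell surface genes stood at 1775, 1049 and 819.8 CPM and extracellular matrix genes at 3218, 1871 and 1630.3 CPM. G2 and M phase genes, low in all of these cells by definition, stood at 445, 334 and 157 CPM, led by the centromere gene Cenpa (-3.14).

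Several groups stayed level along this order. Eif5a had a ratio of -0.02 (-0.21 to 0.17), and the polyamine list stood at 3494, 3712 and 3427 CPM and ribosome biogenesis at 3902, 4065 and 3807 CPM. Adult fibre genes, pooled over their list, stood at 7184, 6951 and 7068 CPM, with Tnni2 (-0.12) and Myl1 (0.01) near level. Single genes of that list did not all stay level. Sln (2.96, 36 against 5 UMIs) and Smpx (1.04, 76 against 40 UMIs) were higher with Actc1, and Car3 (-1.24, 18 against 46 UMIs) was lower. Ccnd3 was near level as well (0.25 [-0.09 to 0.60]), whereas Myod1 was lower with Actc1 (-0.79 [-1.14 to -0.45]).

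**Figure D5:**
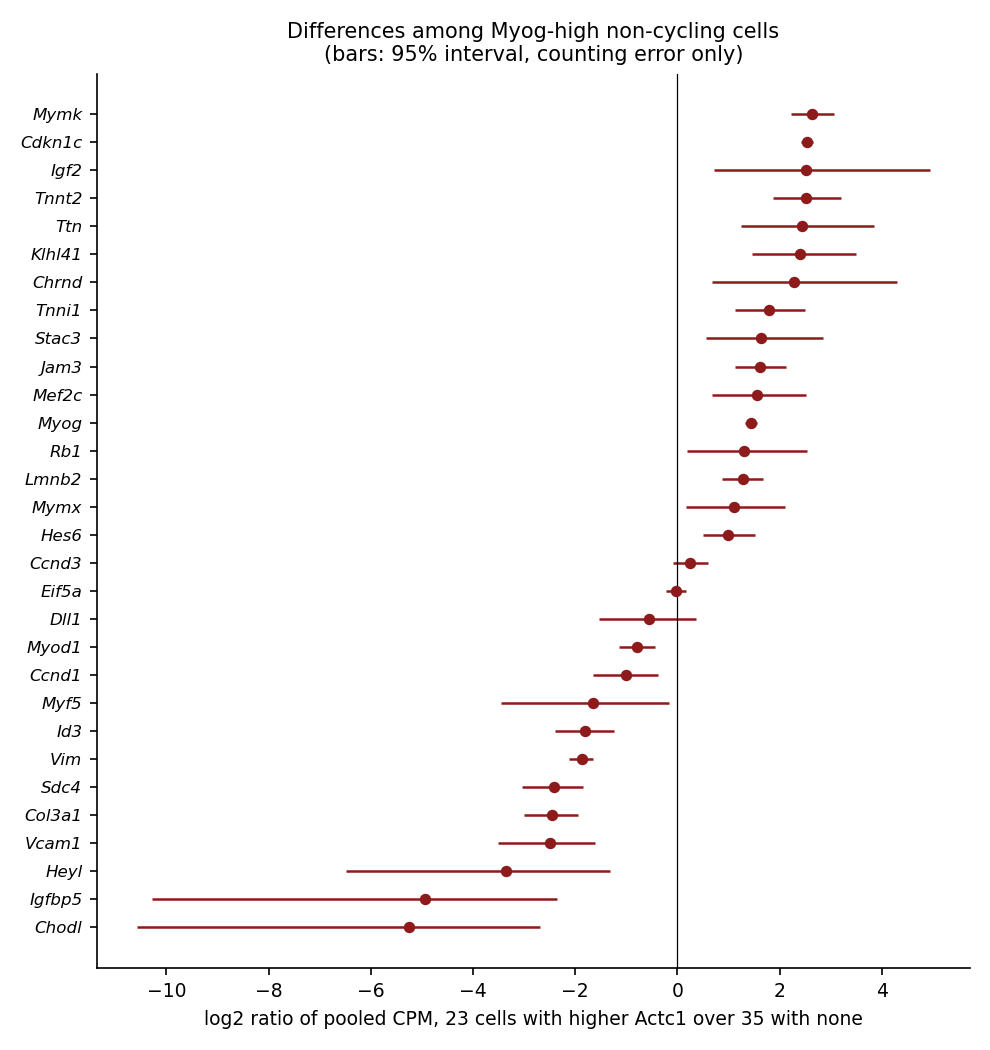
Log2 ratio of pooled CPM between the 23 Myog-high cells with higher Actc1 and the 35 without Actc1 for a chosen set of single genes (points), with exact conditional binomial 95% intervals as bars for counting error only. Of the genes drawn, Mymk and Cdkn1c stand highest at 2.64 and 2.54, Eif5a lies at -0.02, and Igfbp5 and Chodl stand lowest at -4.93 and -5.25.

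Which genes were found together was counted last, as a description that depends on depth. Cdkn1c and Mymk were both found in 52 of the 80 cells, Cdkn1c alone of the pair in 10, Mymk alone in 3 and neither in 15. Cdkn1c and Actc1 were both found in 40, with Cdkn1c alone in 22 and Actc1 alone in 5. A UMI of Myod1 together with Cdkn1c was found in 51 cells, whereas Pax7 and Cdkn1c shared 2 cells.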

How the data were processed

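Single-cell RNA was measured in 1 QSC and 1 ASC library. The authors deposited whole-number UMI counts per gene and barcode, filtered to barcodes called as cells. Per the labels these were made from 10x Genomics libraries aligned to mm10; the submitters' processing notes name Cell Ranger 7.1.0, Seurat 4.1.0 and R 4.1.2, and the file headers name Cell Ranger 6.0.2. The gene annotation used for counting is not given in the sources used here. Counts were read with Python 3.11.15, numpy 2.4.6, scipy 1.17.1 and pandas 2.3.3, and plotted with matplotlib 3.10.9.

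Barcodes were kept at 500 genes or more and 10% or fewer mitochondrial UMIs, which left 1468 of 1650 ASC barcodes (8895815 UMIs) and 516 QSC barcodes (1162091 UMIs). A mitochondrial limit of 1%, as in the study's methods, was run as an alternative. Doublets were left in: scanpy 1.11.5 (Scrublet) called 3 of the 1468 barcodes (0.204%), too few for the caller to have worked, and none was Myog-high. Pooled UMIs were scaled to CPM, and ratios were taken for genes with 20 or more UMIs in both groups together. With 1 library per group there was no test, and intervals cover counting error only. The script was checked on simulated counts.

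The Myog-high cells and gene lists were chosen with earlier results of these data known. Named genes were those of the lists, the 10 highest and 10 lowest ratios over Myog-low cells and the 5 highest and 5 lowest over cycling cells, among genes outside the rule, not mitochondrial, with 100 CPM or more where higher. An even split into 3 groups by Actc1 had been planned, but 35 of 80 cells had no Actc1 UMI, so those formed 1 group and the other 45 were divided at their middle. Glycolysis was described by 14 genes, since Aldoa is listed under 2 identifiers. Alternatives covered each limit of the rule, depth, weighting, thinning and the UMI minimum. Coordinates were taken from GENCODE M21 on GRCm38, in which 32158 of 32285 features (99.6%) were found, and promoter windows from RefSeq on GRCm38.p6, where Myog and Actc1 had entries.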

Additional observations from a re-analysis of the deposited data

How the results depend on the processing

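At a mitochondrial limit of 1% in place of 10%, 7 of the 80 Myog-high cells were left, and the genes higher and lower by 2-fold or more numbered 101 and 183 over Myog-low cells, 286 and 818 over cycling cells and 1407 and 3236 over fibre barcodes. The log2 ratio of Actc1 over Myog-low cells was then 2.42 and that of Fndc5 0.59, while Ccl7 and Apoe turned to 1.91 and 0.33. The value for Fndc5 rested on very few UMIs, since 159 of its 160 in Myog-high cells lay in cells at 1% or more. Thinning to 1200 UMIs gave 184 and 252 genes over Myog-low cells, 167 and 265 over cycling cells and 877 and 1279 over fibre barcodes. Without a UMI minimum the counts were 2031 and 3510, 2735 and 3843, and 5840 and 3667, and with 100 UMIs 126 and 176, 298 and 545, and 844 and 850.

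The ratio of Actc1 over Myog-low cells was 5.53 with a fibre limit of 2.5%, 3.87 with every cell weighted equally and 3.95 after thinning. With Myog at 0.1% or more, Cdkn1c stood at 5.79 and Mymk at 5.86, the comparison then holding cells of middling Myog on the lower side. Chosen after seeing the data, Myog-low cells restricted to those with a Pax7, Myf5 or Myod1 UMI (154 of 206) gave Actc1 5.32 and turned Hba-a1 to 1.03, cells at 1% mitochondrial UMIs or more gave Actc1 6.04, and without the 2 haemoglobin-rich barcodes Hba-a1 turned to 1.17 and Hbb-bt to 0.21. Leaving out the 11 Myog-low cells with markers of other cell types, and the 2 cycling cells with most Cdkn1c, was also chosen after seeing the data. The cause of these shifts was not tested. Of 330 values for 30 ratios of named genes under the alternatives, 325 kept their direction and 273 stayed within the main interval. Most of these genes had been chosen for extreme ratios in the same cells, so a kept direction is no independent check.

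No paired analysis was possible because each group holds 1 library and no result comes from a test. Counts of 1 to 3 UMIs in Myog-low cells leave the ratios of Mymk and Mymx wide, and at a median of 5093 UMIs per Myog-low cell a gene without a UMI is not shown to be absent.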
